A study of Rattus norvegicus with 12 samples.

Results

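The genes described here build up and break down glycogen in the liver. Their choice was made with earlier results of these data known. They were chosen by name: every probe set whose only gene symbol in the platform annotation was Ppp1r3b, Ppp1r3c, Gys2, Pygl, Gbe1, Ugp2, Gyg1 or Phka2. A total of 7 of these 8 genes, of 14217 genes with a probe set of their own, were found on the array, with 8 probe sets. Ppp1r3b had 2 probe sets and each of the others had 1. Ppp1r3c was not analysed here. Expression was measured on 12 Affymetrix rat arrays, 1 for each donor animal, in hepatocytes that had been freed from the liver by collagenase perfusion and were used without culture. There were 4 groups of 3 animals (n = 3 throughout): donors whose hearts were still beating, and donors whose livers were taken 4, 16 or 30 h after death. All 12 animals are labelled as strain Fischer 334. The labels name no altered allele and no drug for any group, and the sources used here give no age. The design compares transcripts in hepatocytes between each interval after death and the heart-beating state.

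Glycogen is the branched polymer in which hepatocytes store glucose after a meal and from which they supply the blood between meals. Ugp2 makes the activated sugar UDP-glucose, Gyg1 (glycogenin) starts the chain, Gys2 (the liver glycogen synthase) lengthens it and Gbe1 adds the branches. Pygl, the liver glycogen phosphorylase, takes glucose off the chain and is switched on by phosphorylase kinase, of which Phka2 is the regulatory subunit of the liver form. Ppp1r3b and Ppp1r3c bind protein phosphatase 1 and hold it on glycogen, where it switches the synthase on and the phosphorylase off.

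The sequences just upstream of Gys2 and Pygl are shown because these enzymes lengthen and shorten the same chain. Each is the 250 bases before the annotated start of the gene, from RefSeq (GRCr8), 5′ to 3′ on the strand of the gene. Gys2 lies on the minus strand at chr4:177137237-177137486 and Pygl on the minus strand at chr6:94476220-94476469. Capitals mark a match to AGGTCA, the core letters of many nuclear receptor sites.
Gys2: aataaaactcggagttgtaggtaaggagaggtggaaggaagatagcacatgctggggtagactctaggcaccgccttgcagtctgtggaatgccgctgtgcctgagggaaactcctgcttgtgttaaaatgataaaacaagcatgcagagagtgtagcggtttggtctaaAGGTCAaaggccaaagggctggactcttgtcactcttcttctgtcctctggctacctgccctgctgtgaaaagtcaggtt
Pygl: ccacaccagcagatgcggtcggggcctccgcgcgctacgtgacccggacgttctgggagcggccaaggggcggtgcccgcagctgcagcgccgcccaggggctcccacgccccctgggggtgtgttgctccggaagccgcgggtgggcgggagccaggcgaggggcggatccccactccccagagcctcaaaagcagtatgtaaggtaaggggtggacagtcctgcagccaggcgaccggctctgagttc
The Gys2 window held AGGTCA once, at position -80 from the start, and its GC content was 49.6%. The Pygl window held none of the 4 motifs searched, with a GC content of 71.2%. The letters searched, on both strands, were the E-box CACGTG, the cAMP response element TGACGTCA, the TATA box TATAAA and AGGTCA, and no one of them lies within another. Windows of the same length upstream of all 33469 promoters in the RefSeq table held CACGTG in 5.59%, TGACGTCA in 1.59%, TATAAA in 12.9% and AGGTCA in 14.1%. AGGTCA was added after the sequences had been seen. These matches describe letters and were not tied to the array values.

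The labelled cell type was checked first. Markers of hepatocytes summed to a linear signal of 88080 to 91620 in heart-beating donors and 79610 to 85250 at 30 h, over 9 genes. Of their 13 probe sets, 1 rose and 3 fell at 30 h, where 19.7% of all probe sets on the array were called by the rule given with the results. Cps1, the first enzyme of the urea cycle, fell by 1.70 in 1 of its probe sets and differed by 0.08 in the other. Asgr1, a surface receptor of hepatocytes, fell by 1.14. Hnf4a, a liver transcription factor, fell by 0.61 in 1 probe set, rose by 0.76 in another and differed by -0.39, not called, in the last. Markers of skeletal muscle, whose fibres also store glycogen, summed to 110.1 to 113 and 105.7 to 114.6 over 5 genes, and 4 of these genes lay below a log2 signal of 5 in both groups. Marker transcripts of other cells in the liver differed between the groups, and numbers of cells were not measured. Of the Kupffer cell and macrophage probe sets, 5 of 9 fell at 16 h and 7 of 9 at 30 h, and the summed signal was 4384 to 4726 in heart-beating donors against 3095 to 3477 and 2792 to 3354. Of the red cell probe sets, 3 of 6 rose at 16 h and 4 of 6 at 30 h (4265 to 5329 against 13680 to 20550 at 30 h). Of the liver endothelial probe sets, 4 of 8 rose at 16 h and 2 of 8 at 30 h (2111 to 2455 against 3445 to 3488 and 2020 to 3189). Of the stellate cell and fibroblast probe sets, 2 of 13 rose at 16 h and 6 of 13 at 30 h (2357 to 3263 against 3711 to 4928 at 30 h). At 4 h no marker probe set was called, where 0.0226% of all probe sets were. The 4 h sums were 4678 to 15670 for red cells and 2657 to 3031 for liver endothelial cells. They were 4433 to 5598 for Kupffer cells and macrophages and 2393 to 2757 for stellate cells and fibroblasts. At 16 h 4.67% of all probe sets were called. The part of these shifts in the glycogen results was not tested. No bile duct probe set passed the test. RNA quality also moved with time. The Gapdh control probe set near the 3′ end of the transcript exceeded that near the 5′ end by 0.39 ± 0.08 log2 units (SD) with a beating heart. The gap was 0.38 ± 0.10 after 4 h, 1.05 ± 0.20 after 16 h and 1.97 ± 0.29 after 30 h. A two-sided exact permutation test against the heart-beating arrays gave p = 1 for 4 h and, for the 2 later groups, 0.1, the smallest p it can reach with 3 arrays a side.

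At 30 h after death, 4 of the 8 glycogen probe sets differed from heart-beating donors. Ppp1r3b and Gbe1 rose, and Pygl and Ugp2 fell. Gyg1, Gys2, Phka2 and a dimmer probe set of Ppp1r3b did not pass the test. The test was limma with Benjamini-Hochberg adjustment over 31042 probe sets, called at an adjusted p under 0.05. By that rule 19.7% of all probe sets were called at 30 h, which is 10.4% of all probe sets called higher and 9.36% called lower. The median log2 difference was -0.13 over the 8 probe sets and 0.01 over all probe sets, and the median size of the difference was 0.34 and 0.12. The arrays of the 2 groups did not overlap in 5 of the 8 probe sets, a state found in 33.5% of all probe sets. Without heart-beating animal 1 or animal 3, 2 of the 8 were called, Pygl and Ppp1r3b. The shares of all probe sets called in those fits are not given here. Each signal is relative to the rest of its array, so that in these bulk samples fewer cells of a type and less RNA per cell cannot be told apart.

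**Figure D1:**
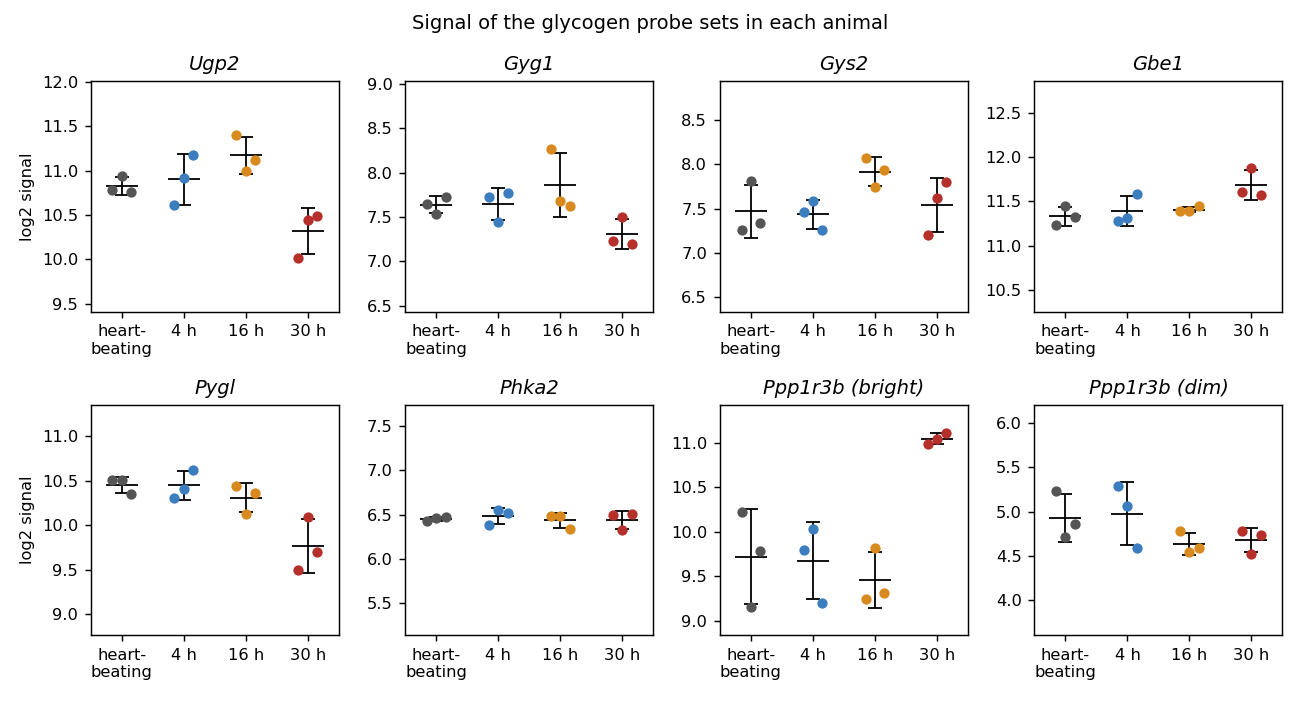
Each panel gives the log2 signal (vertical axis) of 1 glycogen probe set in the 4 groups (horizontal axis), with 1 point per animal, the mean as a long bar and the SD as whiskers. All panels span the same number of log2 units. The 30 h arrays of the bright Ppp1r3b probe set lie at 10.99 to 11.11, above every other array, and those of Pygl at 9.49 to 10.10, below every other array.

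Ppp1r3b, the targeting subunit that brings phosphatase to glycogen, showed the widest range of group means among the glycogen genes, 1.59 log2 units. Its bright probe set read 10.22, 9.15 and 9.78 in heart-beating donors 1, 2 and 3, and 9.80, 10.03 and 9.19 in the 4 h donors. It read 9.25, 9.82 and 9.31 at 16 h and 10.99, 11.05 and 11.11 at 30 h. The first 3 groups overlapped, with no order among them beyond their spread, and all 30 h arrays lay above the other 9. The mean of the heart-beating arrays was 9.72 ± 0.54 (SD) and that of the 30 h arrays 11.05 ± 0.06, a log2 difference of 1.33 (SE 0.25, limma adjusted p = 0.00239) or 2.52-fold. Against 16 h the difference was 1.59 (SE 0.25, limma adjusted p = 0.00200) or 3.02-fold. The 30 h difference kept its call when any 1 array was left out, with values from 1.05 to 1.58.

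The second probe set of Ppp1r3b gave another picture. Its signal was 5.23, 4.71 and 4.85 in heart-beating donors, 5.28, 5.06 and 4.59 at 4 h, 4.78, 4.55 and 4.59 at 16 h, and 4.78, 4.52 and 4.74 at 30 h. These values overlapped between the groups and lay below the medians of the arrays, which ran from 5.83 to 5.90. The difference at 30 h was -0.25 (SE 0.16, limma adjusted p = 0.325), with a 95% confidence interval from -0.60 to 0.10. The bright probe set exceeded the dim one by 4.99, 4.44 and 4.93 log2 units in heart-beating donors, 4.51, 4.98 and 4.61 at 4 h, 4.46, 5.27 and 4.72 at 16 h, and 6.21, 6.53 and 6.37 at 30 h. This gap widened by 1.58 at 30 h (SE 0.18, limma adjusted p = 1.86e-06 over 6609 pairs of probe sets of the same gene). It changed by -0.09 at 4 h (adjusted p = 0.987) and 0.03 at 16 h (adjusted p = 0.936). Among all pairs, 0.0454% changed at 4 h, 14.1% at 16 h and 34.8% at 30 h. Between the 3′ and 5′ ends of Gapdh, the gap grew by 1.58 at 30 h too, but by 0.66 at 16 h. The positions of the Ppp1r3b probe sets along the transcript were not used here, and the part of RNA quality in their gap was not tested.

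**Figure D2:**
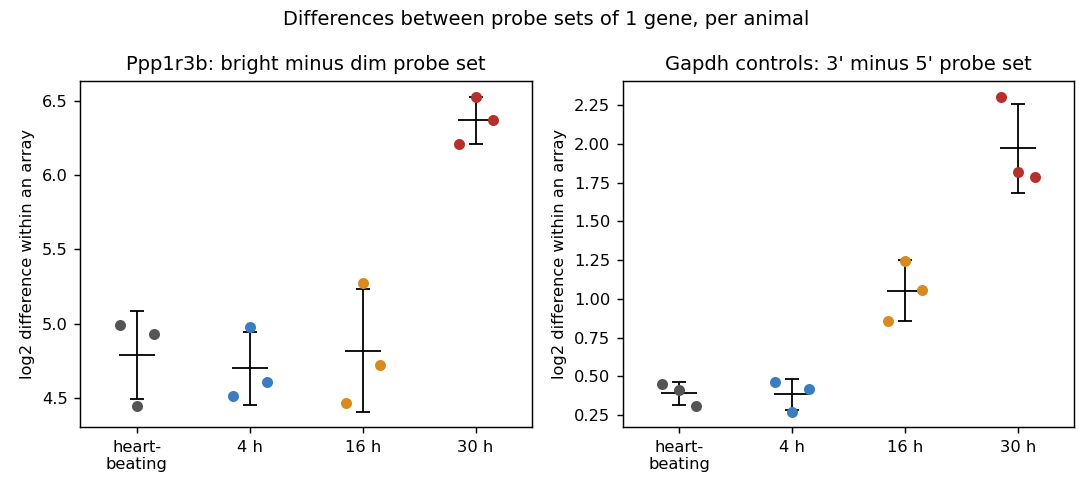
The left panel gives the log2 difference between the bright and the dim Ppp1r3b probe set within each array (vertical axis) for the 4 groups, and the right panel gives the same for the 3′ and 5′ Gapdh control probe sets. Points are animals, long bars are means and whiskers are SDs. The Ppp1r3b gap is 4.79, 4.70 and 4.82 in the first 3 groups and 6.37 at 30 h, while the Gapdh gap is already 1.05 at 16 h.

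On the breakdown side, Pygl fell late. The phosphorylase probe set read 10.51, 10.50 and 10.35 in heart-beating donors, 10.31, 10.41 and 10.62 at 4 h, 10.44, 10.13 and 10.37 at 16 h, and 9.49, 10.10 and 9.70 at 30 h. Up to 16 h the groups overlapped, and all 30 h arrays were lower than the other 9. The mean went from 10.45 ± 0.09 in heart-beating donors to 9.76 ± 0.31 at 30 h, so that the log2 signal fell by 0.69 (SE 0.14, limma adjusted p = 0.0032) or 1.62-fold. The difference between 30 and 16 h was -0.55 (SE 0.14, limma adjusted p = 0.0226). That call, unlike the one against heart-beating donors, was lost without animal 1 or 3 of either time, at -0.52 to -0.41. With the Gapdh gap as a covariate in the fit, both calls were lost and the differences were 0.32 against heart-beating donors and 0.040 against 16 h.

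Phka2, the phosphorylase kinase subunit, had the narrowest range of group means, 0.05 log2 units. Its 12 values lay between 6.33 and 6.55, and the groups overlapped in every comparison. At 30 h the difference from heart-beating donors was -0.01 (SE 0.07, limma adjusted p = 0.958), with a 95% confidence interval from -0.17 to 0.15. Changes within that interval could not be seen with these arrays.

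Among the 4 synthesis genes Ugp2, Gyg1, Gys2 and Gbe1, Ugp2 had the widest range of group means, 0.86 log2 units. Its signal was 10.79, 10.94 and 10.76 in heart-beating donors, 10.61, 10.92 and 11.18 at 4 h, 11.41, 11.00 and 11.12 at 16 h, and 10.02, 10.44 and 10.49 at 30 h. All 16 h arrays were above the heart-beating arrays and all 30 h arrays were below them. At 30 h Ugp2 fell by 0.51 (SE 0.15, limma adjusted p = 0.0324) from 10.83 ± 0.10 to 10.32 ± 0.26, which is 1.43-fold. From 16 to 30 h it fell by 0.86 (SE 0.15, limma adjusted p = 0.00432) or 1.81-fold. The 16 h mean of 11.17 ± 0.21 exceeded that of heart-beating donors by 0.35, which did not pass the test (limma adjusted p = 0.238). The 30 h call against heart-beating donors was lost without heart-beating animal 1 (-0.53), 2 (-0.46) or 3 (-0.55) or without 30 h animal 1 (-0.36). The call between 30 and 16 h held without any 1 array.

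Gbe1, the branching enzyme, was the other gene to rise. It read 11.24, 11.45 and 11.32 in heart-beating donors, 11.28, 11.32 and 11.59 at 4 h, 11.39, 11.39 and 11.44 at 16 h, and 11.61, 11.88 and 11.57 at 30 h. Those of 30 h lay above all heart-beating and all 16 h arrays, and above 2 of the 3 arrays at 4 h. The log2 difference at 30 h was 0.35 (SE 0.10, limma adjusted p = 0.0244) or 1.27-fold, from 11.33 ± 0.11 to 11.68 ± 0.17. Against 16 h it was 0.28 (limma adjusted p = 0.0957). The call at 30 h was lost without heart-beating animal 1 (0.30) or 3 (0.34) and without 30 h animal 2 (0.25).

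Gyg1, which primes the chain, was lower at 30 h than at 16 h. Its signal was 7.65, 7.54 and 7.72 in heart-beating donors, 7.73, 7.45 and 7.77 at 4 h, 8.27, 7.68 and 7.62 at 16 h, and 7.23, 7.50 and 7.19 at 30 h. Animal 1 at 16 h stood above the other 11 arrays, and the 30 h arrays lay below all arrays of heart-beating donors and of 16 h. From 16 to 30 h Gyg1 fell by 0.55 (SE 0.15, limma adjusted p = 0.0359), a call that was lost without 16 h animal 1 (-0.34) and without 30 h animal 1 (-0.51) or 3 (-0.49). Against heart-beating donors the 30 h difference was -0.33 (SE 0.15, limma adjusted p = 0.158).

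Gys2, the synthase itself, passed no test in any of the 5 comparisons. It read 7.26, 7.81 and 7.34 in heart-beating donors, 7.46, 7.58 and 7.26 at 4 h, 8.07, 7.75 and 7.94 at 16 h, and 7.21, 7.62 and 7.80 at 30 h. Its highest group mean was that of 16 h, 7.92 ± 0.16, and its arrays lay above all 4 h arrays but overlapped the other groups. The difference of 16 h was 0.45 from heart-beating donors (SE 0.16, limma adjusted p = 0.153) and 0.48 from 4 h (SE 0.16, limma adjusted p = 0.0932). At 30 h the difference from heart-beating donors was 0.07, with a 95% confidence interval from -0.28 to 0.43. The 16 h difference from 4 h passed the test in 3 of the 12 settings that did not leave out a single array. These were the fit without the 30 h arrays, that with only the groups compared, and that with the Gapdh gap as a covariate. Of the 12 fits that left out 1 array, only that without 30 h animal 1 called it (limma adjusted p = 0.0442).

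**Figure D3:**
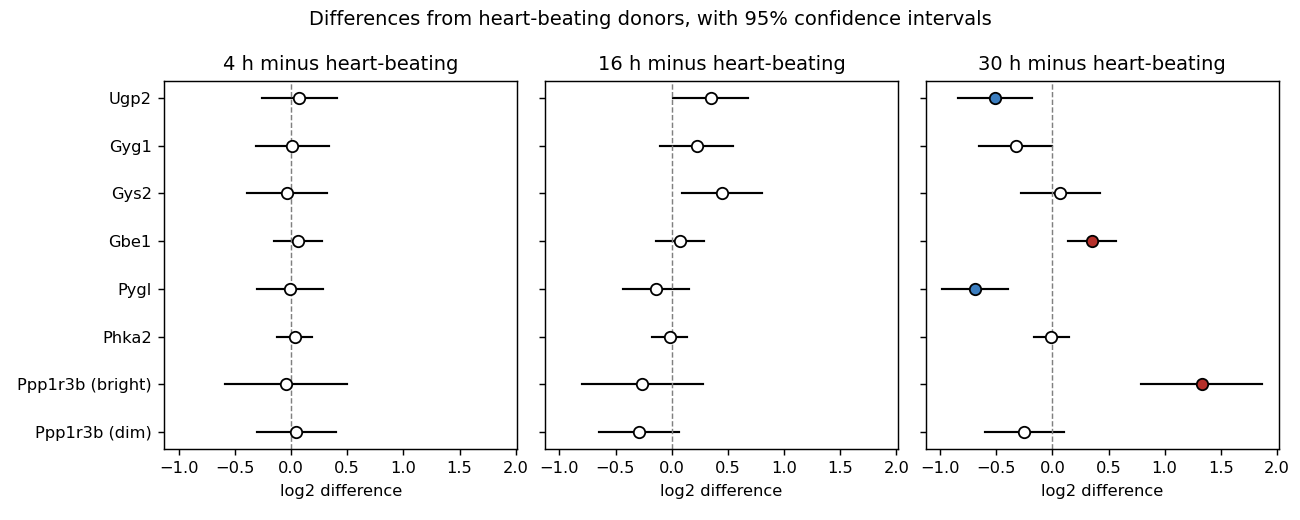
The 3 panels give the log2 difference from heart-beating donors (horizontal axis) at 4, 16 and 30 h for each glycogen probe set, as a point with its 95% confidence interval from the limma fit. Filled red points were called higher, filled blue points lower, and open points were not called. All 8 points are open at 4 and 16 h, and at 30 h Ppp1r3b (bright) at 1.33 and Gbe1 at 0.35 are red while Pygl at -0.69 and Ugp2 at -0.51 are blue.

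At 4 h the glycogen genes were close to heart-beating donors. The 8 differences ran from -0.04 to 0.07, and limma called 0 of the 8, with 0 at an unadjusted p under 0.05. Over all probe sets 0.0226% were called. The widest interval was that of the bright Ppp1r3b probe set, from -0.58 to 0.49, so a change within it was not detectable with 3 arrays a group. All comparisons with heart-beating donors share the same 3 control arrays.

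At 16 h the differences were larger, from -0.29 for the dim Ppp1r3b probe set to 0.45 for Gys2. Limma called 0 of the 8 against heart-beating donors, with 2 at an unadjusted p under 0.05 (Gys2 and Ugp2), where 4.67% of all probe sets were called. Only Ugp2 had groups that did not overlap, against 28.7% of all probe sets. Between 16 and 4 h limma also called 0 of 8, with 1 at an unadjusted p under 0.05 (Gys2), against 7.82% of all probe sets. Gys2 alone had groups that did not overlap, against 32.5% of all.

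Between 30 and 16 h limma called 4 of the 8, with Ppp1r3b (bright) higher and Ugp2, Gyg1 and Pygl lower. Over all probe sets 10.2% were called, 4.29% higher and 5.95% lower. The groups did not overlap in 5 of the 8, against 26.6% of all. The count was 2 without 16 h animal 1, without 30 h animal 1 or 3, and with only these groups in the fit. For those fits the shares of all probe sets called are not given here. The moderated F test of all intervals against the heart-beating arrays called 3 of the 8, Ppp1r3b (bright), Pygl and Ugp2, where 21.3% of all probe sets were called.

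The Gapdh gap was widest in the same 30 h arrays. When it was added to the limma fit as a covariate, 0 of the 8 probe sets were called at 30 h against heart-beating donors, and the standard errors grew (Ppp1r3b from 0.25 to 0.98, Pygl from 0.14 to 0.44). Under it the difference of the bright Ppp1r3b probe set was 1.07, that of Gbe1 0.52, that of Pygl 0.32 and that of Ugp2 0.87. That of Gys2 was 1.50 (SE 0.48, limma adjusted p = 0.242), the largest of the 8, and that of Gyg1 was 0.40 (SE 0.55, limma adjusted p = 0.772). Pygl, Ugp2 and Gyg1 thus changed sign. The share of all probe sets called in this covariate fit is not given here. The count of 0 was therefore not read as a result about the glycogen genes. Because the gap rises with time after death, RNA quality and time cannot be told apart in these arrays.

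**Figure D4:**
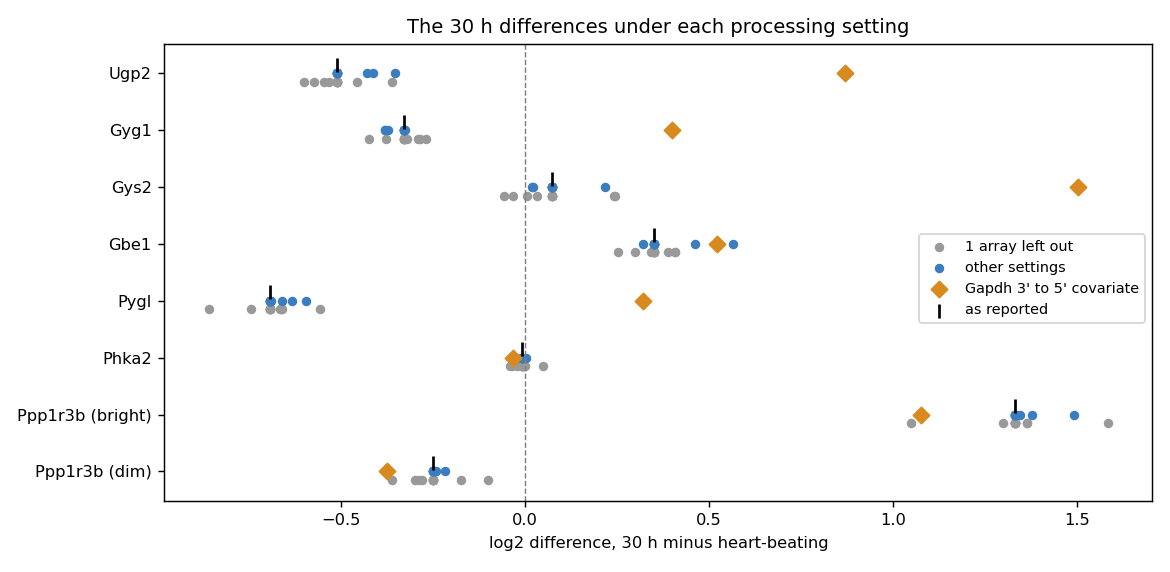
Each row gives the log2 difference between 30 h and heart-beating donors (horizontal axis) for 1 glycogen probe set under every processing setting. Black ticks are the reported values, grey points leave out 1 array, blue points are other settings and orange diamonds have the Gapdh gap as a covariate. The grey and blue points of Pygl and of the bright Ppp1r3b probe set stay on their side of 0. The diamonds of Pygl (0.32), Ugp2 (0.87) and Gyg1 (0.40) lie on the other side, and that of Gys2 (1.50) lies far from its reported 0.07.

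The wider pathway was followed through a list of 45 other gene symbols, of which 35 were measured with 55 probe sets. This list too was chosen with earlier results of these data known. At 4 h 0 of the 55 passed limma's test. At 16 h 3 rose and 1 fell, where 4.67% of all probe sets were called. At 30 h 9 rose and 11 fell, where 19.7% of all were called (10.4% higher and 9.36% lower), with a median difference of -0.06. With 1 probe set per gene, the brightest, 9 of 35 rose and 3 fell at 30 h. With the Gapdh gap as a covariate 0 of the 55 were called. The 16 h count of 4 was 2 without heart-beating animal 1, 0 without heart-beating animal 3 and 1 without 16 h animal 1 or 2, and 13 with array weights. The 30 h count of 20 was 13 without heart-beating animal 1 and 12 with only the groups compared in the fit. Shares of all probe sets called under these settings are not given here. The moves in count were therefore not read as results about the listed genes.

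Among genes of glucose entry and synthesis, 2 of 9 probe sets rose at 30 h and 1 fell, to be read against the 19.7% of all probe sets, as are the role counts that follow. Pgm1, which links the phosphates of glucose that enter and leave glycogen, fell by 1.08 (SE 0.14, limma adjusted p = 0.000185) or 2.12-fold in 1 probe set. Its brighter probe set had a difference of -0.17 that did not pass (limma adjusted p = 0.225), and the gap between them widened by 0.92 (limma adjusted p = 1.93e-06). Slc2a2, the glucose transporter of the hepatocyte surface, rose by 0.86 at 16 h (limma adjusted p = 0.0142) and 0.54 at 30 h (limma adjusted p = 0.0436). The 30 h call of Slc2a2 was lost when any of 9 single arrays was left out, at 0.36 to 0.59, and its 16 h call without heart-beating animal 3 or 16 h animal 1 or 2, at 0.82 to 0.87. Gys1, the synthase of muscle and most other tissues, differed by 0.02 at 30 h.

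On the breakdown side 1 of 13 probe sets rose at 30 h and 3 fell. Calm2, one of the genes for calmodulin, a subunit of phosphorylase kinase, fell by 0.51 (limma adjusted p = 0.00147). Gaa, the glucosidase that digests glycogen in lysosomes, fell by 0.43 in its dimmer probe set (limma adjusted p = 0.00654) and by 0.22 in its brighter one (limma adjusted p = 0.0187). The dimmer one read 5.54 in heart-beating donors and 5.12 at 30 h, below the medians of the arrays. The probe set that rose was that of Phkb, another kinase subunit, at 0.37 (limma adjusted p = 0.041). The 3 probe sets of Pygm, the muscle phosphorylase, differed by -0.14 to -0.04 and were not called.

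Among phosphatase subunits and inhibitors 1 of 12 probe sets rose at 30 h and 2 fell. Ppp1cb, a catalytic subunit of the phosphatase that Ppp1r3b targets, fell by 0.78 (SE 0.12, limma adjusted p = 0.00087) or 1.71-fold. Ppp1cc, another catalytic subunit of that phosphatase, was the probe set that rose, by 0.35 (SE 0.07, limma adjusted p = 0.00514). Ppp1r2, an inhibitor of that phosphatase, fell by 0.39 in 1 of its probe sets (limma adjusted p = 0.00453) and differed by 0.06 and -0.20 in the others, not called. The measured targeting subunits other than Ppp1r3b (Ppp1r3a, Ppp1r3d and Ppp1r3f, 4 probe sets) had differences from -0.09 to 0.21 and were not called.

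Among kinases and hormone signals 4 of 19 probe sets rose at 30 h and 5 fell. Insr, the insulin receptor, rose by 0.61 at 16 h (limma adjusted p = 0.00929) and 0.67 at 30 h (limma adjusted p = 0.00115) in its brighter probe set, while the other differed by -0.11 at 30 h (limma adjusted p = 0.458). The 16 h call of Insr was lost without heart-beating animal 3 (0.53). Prkar2a, a regulatory subunit of protein kinase A, fell by 0.57 in the dimmest of its 3 probe sets (limma adjusted p = 0.000208), while the brightest differed by 0.05 (limma adjusted p = 0.832) and the other by -0.16 (limma adjusted p = 0.165). The dimmest read 5.04 in heart-beating donors and 4.47 at 30 h, below the medians of the arrays. Gsk3b, a kinase that switches the synthase off, rose by 0.37 (limma adjusted p = 0.0115). At 30 h Akt2 was called in both directions, at -0.38 and -0.35 in dimmer probe sets and 0.26 in its brightest. Its other probe set differed by -0.07, not called. Prkar1a was called at 0.40 in its brightest probe set and -0.35 in its dimmest, and differed by 0.004, not called, in the other. Prkacb fell by 0.23 in a dimmer probe set (limma adjusted p = 0.0378), and its others differed by -0.18 and -0.01, not called. Gcgr, the glucagon receptor, differed by -0.08 (limma adjusted p = 0.657). Of the genes that tether glycogen or keep it soluble, Stbd1 rose by 0.27 (limma adjusted p = 0.0467) and Epm2a differed by -0.08 (limma adjusted p = 0.435). The Stbd1 call was lost when any of 8 single arrays was left out, at 0.21 to 0.29. Phkb, Gsk3b, Akt2, Prkar1a, Prkacb, Gys1, Pygm, Gcgr, Ppp1cc, Ppp1r3a, Ppp1r3d and Ppp1r3f were named after their values had been seen.

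The gap between probe sets of 1 gene was also tested in the wider list. Of its 20 pairs, limma called 0 at 4 h, 4 at 16 h and 10 at 30 h, where 0.0454%, 14.1% and 34.8% of all pairs were called. Pairs of a gene share its brightest probe set, so they are not independent. The called pairs at 16 h came from Akt2 and Insr alone, and at 30 h Akt2 and Prkar1a each gave more than 1. At 30 h the called changes ran from -0.27 for Ppp1r3d to 0.92 for Pgm1.

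**Figure D5:**
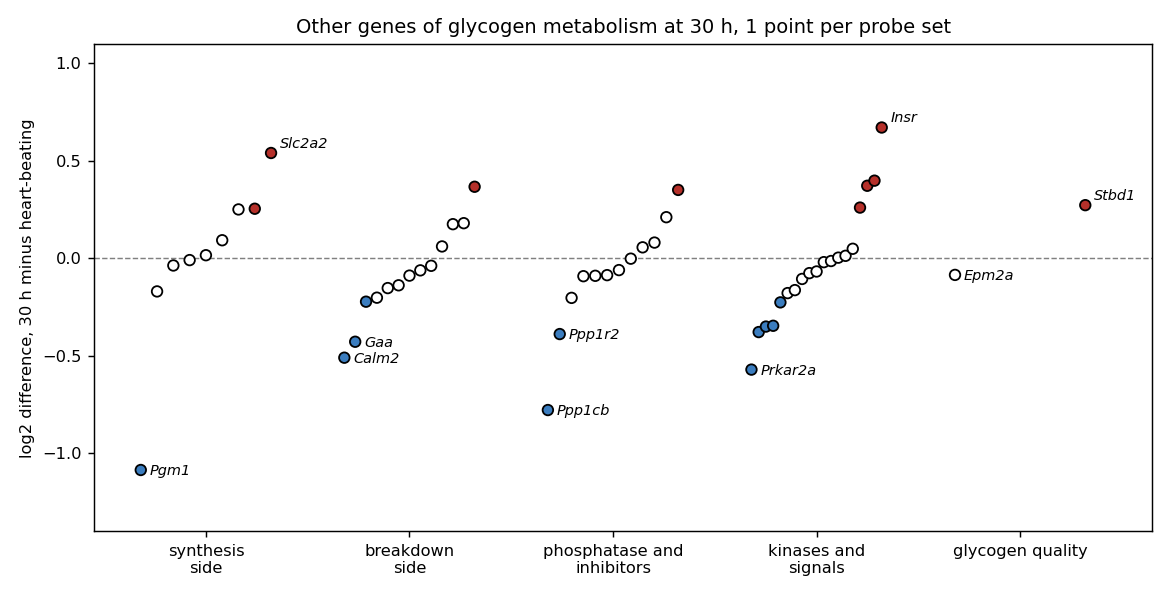
Each point is 1 probe set of the wider glycogen list, with its log2 difference between 30 h and heart-beating donors on the vertical axis and the role of its gene on the horizontal axis. Red points were called higher, blue points lower and open points were not called, and labels mark the genes named by the fixed rule. Pgm1 at -1.08 and Ppp1cb at -0.78 are the lowest points and Insr at 0.67 the highest.

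For the genes with the widest ranges, Ppp1r3b and Ugp2, the genes with the most similar pattern over the 12 arrays were sought among 14210 others. For Ppp1r3b (bright) they were Sf3a2, a splicing factor (Pearson r = 0.95, Spearman rho = 0.92), Dnajb5, a co-chaperone of the DnaJ family (0.95 and 0.94), and LOC100912002 (0.93 and 0.73). The group means of Dnajb5 were 6.68, 6.69, 6.71 and 7.18, highest at 30 h. For Ugp2 they were Ptgr3 (0.95 and 0.92), Mst1, which encodes a plasma protein made by the liver (0.95 and 0.92), and Mtarc2, an outer mitochondrial membrane enzyme (0.95 and 0.97). The group means of Mtarc2 were 11.18, 11.19, 11.47 and 10.86, highest at 16 h and lowest at 30 h like those of Ugp2. These are the highest of many correlations, over arrays that share their groups and their RNA quality, and are given as a description.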

How the data were processed

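RNA from hepatocytes of 12 rats was hybridised to 1 array each. The authors deposited 1 log2 signal for each probe set. RMA and limma are the tools named in the submitters' processing notes, with versions not given in the sources used here. Of 31099 probe sets, 57 controls were left out, and 20826 of the others had 1 gene symbol, 436 had several and 9780 had none. Groups came from the sample titles.

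A linear model with a mean for each group was fitted in limma 3.58.1 (R 4.3.3) over the 12 arrays and moderated with eBayes (8 residual and 4.93 prior degrees of freedom), with Benjamini-Hochberg adjustment over all 31042 probe sets. Differences between probe sets of a gene were tested the same way. The fit was also run on simulated data with independent noise for each probe set and shifts planted at 30 h. That simulation held no gradient of RNA quality, so it does not cover that feature of these arrays. Arrays have no count depth, so their number limits the precision. Replicates of a group correlated at 0.991 to 0.997.

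The members and lists were chosen with earlier results of these data known. All member probe sets are reported. Of the wider list, those called with a size of at least 1 are named, and otherwise the 2 with the smallest p at 30 h in each role. Also named are the genes that the text marks as named after their values had been seen. The 3 hepatocyte markers that were called are named too. Motif matches are descriptive. Some listed genes are not reported here.

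The alternatives were median centring, cyclic loess, a further quantile normalization, the upper 50% of probe sets by mean, only probe sets with 1 symbol, 1 probe set per gene, array weights, eBayes with a variance trend and robust settings, only the groups compared, the animal number as a block, the Gapdh gap as a covariate, no 30 h arrays, and leaving out each array. The labels number the animals in each group, but these are separate animals. Residuals of same-numbered arrays correlated at -0.27 to 0.11, with 2 of 18 over 0.1, so the numbers were not treated as pairs.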

Additional observations from a re-analysis of the deposited data

How the results depend on the processing

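Of 934 differences recomputed for the glycogen probe sets, 854 kept their direction and their side of the threshold, 25 lost a call, 8 gained one, 3 called differences changed sign and 44 uncalled ones did. All sign changes of called differences arose with the Gapdh gap as a covariate: at 30 h against heart-beating donors Pygl was 0.32, Ugp2 0.87, Pgm1 0.49 and Ppp1cb 0.32, and at 30 h against 16 h Pygl was 0.040. With that covariate the count of called glycogen probe sets was 0 at 30 h against heart-beating donors, 0 at 30 h against 16 h, 2 at 16 h against 4 h and 1 by the F test, and the wider list had 0 at both 16 and 30 h. Because the gap follows the groups, the standard errors of this fit were larger, and the cause of the sign changes was not tested. With only the groups compared in the fit, 1 glycogen probe set was called at 16 h against 4 h, 2 at 30 h against 16 h, and 12 of the wider list at 30 h. Without the 30 h arrays, 1 was called at 16 h against 4 h and 8 of the wider list at 16 h. Array weights gave 13 of the wider list at 16 h. With 1 probe set per gene, 12 of 35 were called at 30 h (9 higher and 3 lower, against 9 and 11 of 55). Over the fits that left out 1 array, the glycogen count was 2 to 5 at 30 h against heart-beating donors, 2 to 4 at 30 h against 16 h and 0 to 1 at 16 h against 4 h, and the wider list had 0 to 6 at 16 h and 13 to 19 at 30 h. Shares of all probe sets called under the settings of this section are not given here. Its counts were therefore not read as results about the glycogen genes or the wider list.

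Ugp2 at 30 h against heart-beating donors was no longer called with array weights (-0.41) or quantile normalization of the deposited values (-0.35), and Gbe1 with only the groups compared (0.35). Gbe1 at 30 h against 16 h was called after cyclic loess (0.39) and a further quantile normalization (0.45). With the animal number as a replicate block the glycogen counts stayed at 0, 0 and 4 against heart-beating donors, and the wider list had 3 at 16 h and 15 at 30 h. Slc2a2 and Stbd1 lost their 30 h calls under the block (limma adjusted p = 0.0677 and 0.0715). Only 1 of the 12 arrays correlated best with an array of its own number. The dim Ppp1r3b probe set was removed by the upper 50% filters, so its pair was not run there. It was also removed by the setting with 1 probe set per gene. The F test was not run with the variance trend, with only the groups compared or without the 30 h arrays. The 3 arrays per group limit what could be seen.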
